A study of Rattus norvegicus with 24 samples.

Results

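Collagen chain genes were followed through the growth plate cartilage and the epiphyseal cartilage of the proximal tibia in 1-week-old rats. The members were all genes on the array whose single platform symbol reads Col, a number, a and a number, which gave 41 of 14218 genes with a single symbol. Each gene was represented by its probe set of highest mean log2 signal, out of 58 probe sets for the 41 genes. Frozen sections of 60 µm were stained and separated by hand under a microscope, and total RNA was amplified, biotin-labelled and hybridised to Affymetrix arrays. Of the 24 arrays, 4 held epiphyseal cartilage, from the animals numbered 1, 2, 4 and 5. The resting zone, the proliferative zone, the transition zone that lies between the proliferative and hypertrophic cells, and the hypertrophic zone were each measured in animals 1 to 5 (n = 5). The labels give all groups as not castrated, the sources used here give no strain, and values below follow the order of the animals. Male rats are named in the labels of 3 zones (resting, proliferative and hypertrophic), while the differently worded labels of the epiphyseal and transition arrays give no sex. Label wording and zone therefore cannot be told apart in comparisons that cross between these sets. Whether a number names the same animal in both sets of labels is not stated, and the tallies of animals below, and the animal block of the fit, take it that it does. The zones were cut by hand, so a dissected zone can carry cells of its neighbours.

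Collagens are secreted proteins in which chains wind around each other into a helix of repeating glycine triplets. In cartilage, type II collagen forms thin fibrils together with type XI inside them and type IX on their surface, and hypertrophic chondrocytes add type X, a short chain that forms a network around the enlarged cell. Type VI collagen makes beaded filaments around chondrocytes. Type I collagen, with types III and V, builds the fibrils of bone and of soft connective tissue, and types IV, XV and XVIII belong to basement membranes and the zone next to them. The fibril-associated collagens with interrupted helices (FACIT, such as types IX, XII, XIV and XVI) bind to fibrils rather than forming them.

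RefSeq promoter windows of build GRCr8 were matched by symbol to 32 of the 41 genes, and the 250 bases before the annotated start were searched on both strands. The motifs searched were the letters TATAAA of the box of that name, the CCAAT box, the letters GGGCGG of the GC box, the RUNX core TGTGGT and the AP-1 site TGAGTCA, and matches do not overlap in the stretches shown. Windows are shown for Col10a1 and Col6a1, the 2 genes with the smallest adjusted p across zones, and for the start region shared by the basement membrane pair Col4a1 and Col4a2, with matches in capitals. The first 2 lie on chromosome 20, plus strand, and the stretch between the divergent starts of Col4a1 and Col4a2 lies on chromosome 16 and is written along the Col4a1 strand.
Col10a1, chr20:39737286-39737535: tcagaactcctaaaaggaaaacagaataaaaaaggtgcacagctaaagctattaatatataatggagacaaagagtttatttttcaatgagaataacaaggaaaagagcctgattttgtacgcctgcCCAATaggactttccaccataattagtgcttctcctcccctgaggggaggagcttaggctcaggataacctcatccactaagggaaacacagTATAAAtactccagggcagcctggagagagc
Col6a1, chr20:11905440-11905689: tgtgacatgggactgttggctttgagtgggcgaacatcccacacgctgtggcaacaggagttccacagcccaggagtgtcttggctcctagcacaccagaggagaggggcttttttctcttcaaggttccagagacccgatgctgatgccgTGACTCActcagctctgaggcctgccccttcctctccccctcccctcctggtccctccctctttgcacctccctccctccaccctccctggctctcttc
Col4a1 and Col4a2, chr16:84885521-84885596: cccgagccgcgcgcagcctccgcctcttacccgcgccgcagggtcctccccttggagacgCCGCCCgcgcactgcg

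The TATAAA match of Col10a1 began 31 bases before the annotated start and its CCAAT match 123 bases before it. The AP-1 match of Col6a1, on the opposite strand, began 99 bases before its start. The annotated starts of Col4a1 and Col4a2 point away from each other with 76 bases between them, and this stretch held a GGGCGG match on the opposite strand and no TATAAA match. The letters TATAAA were found for 4 of the 32 genes (11.4% of 35 windows, against 12.9% of all 33469 windows of this length), CCAAT for 9 (28.6% of windows against 34.0%), GGGCGG for 18 (54.3% against 30.5%), TGTGGT for 2 (5.71% against 14.5%) and TGAGTCA for 1 (2.86% against 4.05%). These are matches of letters and show no binding.

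Zones were compared on log2(signal + 16) with limma in a fit that held the animal as a block. The p-values were adjusted (Benjamini-Hochberg) over 19213 probe sets. A difference was called when its fold reached 2 and its adjusted p was below 0.05. Only probe sets brighter than the median of their array in 4 or more arrays were tested, which left 33 of the 41 collagen genes. The array medians lay between 135.3 and 244.6. Fold changes are log2 differences of signal + 16, so those of dim probe sets come out too small, and their errors are standard errors of the fit. Signals of different genes come from different probe sets and are not comparable with each other. The labels give each array of a zone its own animal number, and their number limits the precision.

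Of the 33 tested collagen genes, 24 (72.7%) differed across the 5 zones in limma's F test at an adjusted p below 0.05, against 55.6% of all tested probe sets. Here and below, the members count 1 probe set per gene, the brightest. The shares over all probe sets count every tested probe set, dimmer ones of a gene and those without a single symbol included. From epiphyseal cartilage to the resting zone 0 rose and 5 fell, with 15.2% of members called against 1.51% of all probe sets, of which 0.651% rose and 0.859% fell. From the resting to the proliferative zone 3 rose and 4 fell (21.2% against 6.09% of all probe sets, 1.97% up and 4.12% down). From the proliferative to the transition zone 5 rose and 1 fell (18.2% against 8.43%, 3.11% up and 5.31% down). From the transition to the hypertrophic zone 8 rose and 3 fell (33.3% against 9.27%, 6.78% up and 2.49% down). Between the proliferative and the hypertrophic zone, whose labels share their wording, 13 rose and 5 fell (54.5% against 18.7%, 9.59% up and 9.07% down). That last comparison uses the same arrays as those before it. The median absolute log2 fold change of the members in it was 1.134, against 0.46 over all tested probe sets, and the medians with sign were 0.163 and -0.049. In all, 20 genes were called at least once, and 13 tested genes were never called. The share of all probe sets called at least once was not computed, so these counts cannot be set against it. These counts include dim genes that passed the filter through a few arrays. With the filter set on the mean over all arrays instead, a choice made after seeing the data, 26 members were tested. Of these, 19 differed across zones (73.1%, against 63.1% of all probe sets then tested), and 4, 6, 5, 8 and 14 were called in the comparisons in the order above. These are 15.4%, 23.1%, 19.2%, 30.8% and 53.8%, against 1.82%, 5.81%, 8.76%, 8.67% and 18.2% of all probe sets then tested.

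Some arrays stood apart in markers of other cell types. Collagen calls that were lost without such arrays are given beside their genes, and not every call that held is given both ways. In the hypertrophic array of animal 4 the summed signal of 5 osteoclast markers was 77719, against 8093 to 12366 in the other hypertrophic arrays, and that of 12 markers of perichondrium, tendon and fibroblasts was 57226 against 8311 to 13122. Its osteoblast sum (5 markers, without collagens) was 79911 against 22412 to 43496. In the epiphyseal arrays of animals 1 and 2 the osteoclast sum was 60601 and 29131, against 2823 and 2025 in animals 4 and 5, and the endothelial sum (8 markers) was 6697 and 4883 against 783 and 887. In the resting array of animal 1 the osteoclast sum was 24323, against 1234 to 5502 in the other resting arrays. In the resting array of animal 3 the sum of 8 skeletal muscle markers was 81537, against 18566 to 62312, and the perichondrium, tendon and fibroblast sum was 26725 against 15254 to 17806. Without the resting array of animal 3 all 47 calls held, and without that of animal 1 the 3 that were lost are given beside their genes. The 5 chondrocyte markers on the array summed to between 103670 and 253315 over the arrays, so their sum was high throughout. Single markers moved, and 1 of the 5 was called lower from the proliferative to the hypertrophic zone, where 9.07% of all probe sets fell. Between these zones the mean signal of Matn1 went from 16630 to 6934 and that of Snorc from 36720 to 30740. The means of Acan, Comp and Hapln1 were higher in the hypertrophic zone. The log2 ratio of the 3' to the 5' actin control, a sign of RNA integrity, had a mean of 4.03 in epiphyseal and in resting cartilage. It was 4.47 in the proliferative, 4.46 in the transition and 4.31 in the hypertrophic zone. Among the epiphyseal arrays it ran from 3.48 to 4.94. The part of RNA integrity in the differences between zones was not tested. In these bulk samples, fewer cells of a type and less RNA per cell cannot be told apart.

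The representative probe sets of the cartilage fibril chains showed no called change in any comparison. A dimmer Col2a1 probe set, given below with type IX, was called in 2 of them. Col2a1, which encodes the main chain of cartilage fibrils, had signals of 53252, 56488, 52954 and 96938 in epiphyseal cartilage (animals 1, 2, 4 and 5), 116840, 49112, 66571, 49174 and 79084 in the resting zone (animals 1 to 5) and 120176, 50012, 39547, 60931 and 75975 in the proliferative zone. It read 106721, 56859, 35309, 52381 and 48069 in the transition and 138434, 69446, 42167, 50198 and 73711 in the hypertrophic zone. The groups overlapped in every comparison, and animal 1 gave the highest array in each of the 4 growth plate zones. The log2 fold change from the proliferative to the hypertrophic zone was 0.09 ± 0.21, adjusted p = 0.778, with a 95% interval of -0.35 to 0.53. Col11a1, a chain of type XI collagen, read 84245, 42702, 33096, 47879 and 61246 in the proliferative, 76929.9, 44057, 29930.4, 43622 and 35776 in the transition and 96318, 58448, 34453, 39860.4 and 54241 in the hypertrophic zone. Its resting values were 82163, 44931, 51575, 40752 and 60503 and its epiphyseal values 42761, 43734, 43636 and 73731, and the zones overlapped. Its partner Col11a2 ranged over all arrays from 21732 to 61712, and Col27a1, a further fibrillar chain of cartilage, from 10179 to 30939. The 4 genes did not pass the F test. The adjusted p across zones was 0.519, 0.548 and 0.899 for these 3, and 0.594 for Col2a1. The small changes of Col2a1 and Col11a1 between the proliferative and hypertrophic zones turned their sign with arrays scaled to one median (-0.02 and -0.06).

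Type IX chains held no call either. Col9a1, a chain of this fibril-surface collagen, read 36319.5, 39649, 39552 and 63873 in epiphyseal cartilage, 78033, 38995, 48243, 36410.1 and 51139.5 in the resting and 77388, 36457, 30404, 40907 and 52459 in the proliferative zone. It read 69086, 39395, 27189, 37154 and 38143 in the transition and 72646, 49849.8, 29221, 31246 and 48198 in the hypertrophic zone, and all zones overlapped. Its partners Col9a2 and Col9a3 ranged from 18543 to 68243 and from 30131 to 92830.3. The 3 genes had adjusted p across zones of 0.67, 0.253 and 0.583. The zone means of these 7 genes spanned at most 0.43 on the log2 scale, while single arrays of 1 gene differed by up to 3.921-fold (Col2a1). From the proliferative to the hypertrophic zone the 95% interval was -0.35 to 0.46 for Col11a1, -0.44 to 0.35 for Col9a1 and -0.83 to -0.03 for Col9a2, so changes of the sizes inside these intervals cannot be set apart from 0 with 5 arrays a zone, except that the Col9a2 interval lay below 0 (adjusted p = 0.0824). The Col2a1 probe set ranked between 1 and 6 among all probe sets of its array and was the brightest in 10 of 24. A dimmer Col2a1 probe set read 3778 ± 1444 (SD) in the proliferative, 1775 ± 1026 in the transition and 3833 ± 1577 in the hypertrophic zone (n = 5 each). That probe set was called lower in the transition zone (-1.19) and higher again in the hypertrophic zone (1.17), so the probe sets of Col2a1 disagree there. Whether the brightness of the other probe sets limits their range was not tested.

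**Figure D1:**
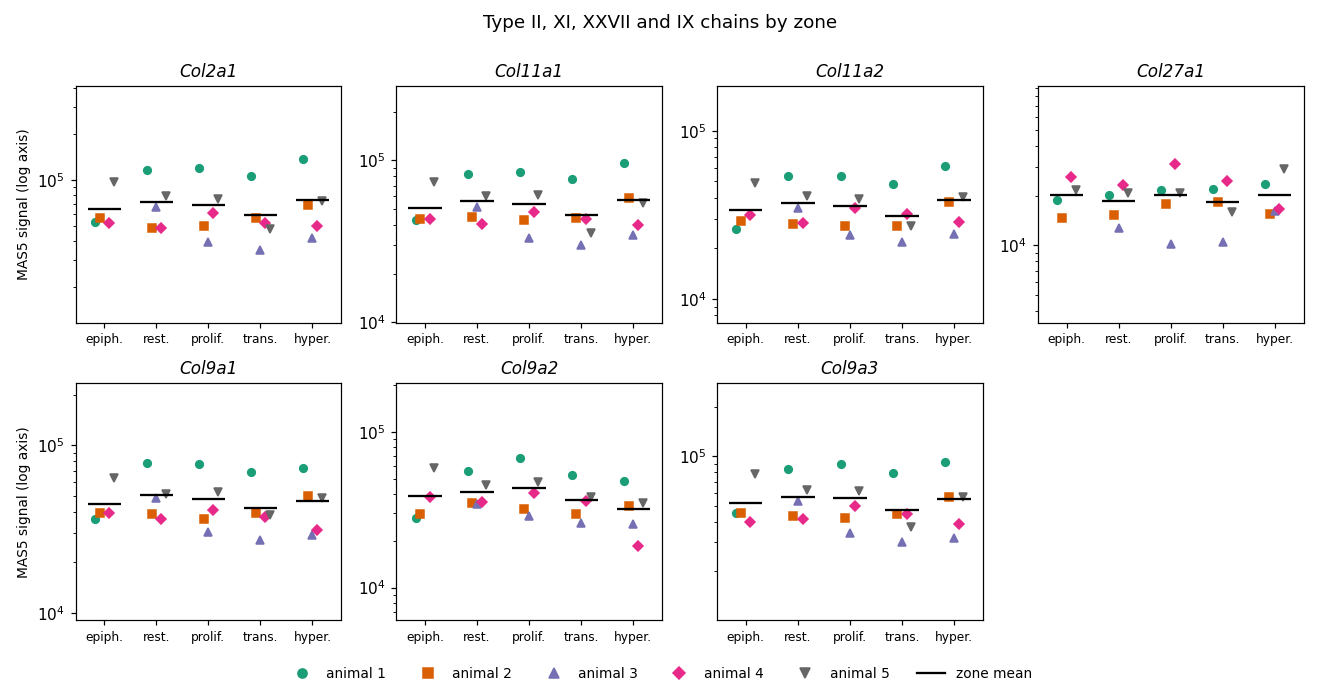
MAS5 signal (log axis) of the type II, XI, XXVII and IX chain genes in each array, grouped by zone on the horizontal axis; symbols mark the animal and bars the zone mean (4 epiphyseal arrays, 5 in each other zone). The zones overlap for every gene, and the arrays of animal 1 lie highest in the growth plate zones for Col2a1, Col11a1, Col11a2, Col9a1, Col9a2 and Col9a3.

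Col10a1, the chain of the hypertrophic type X collagen, had the widest span of zone means on the log2 scale among the tested collagen genes, at 6.55. Its signals were 13967, 6418, 10599.7 and 3034 in epiphyseal cartilage, 236, 727, 490.4, 525 and 2136 in the resting zone and 4132, 4898, 1533, 628 and 1939 in the proliferative zone. In the transition zone they were 55989, 39484, 23885, 30696 and 33560.1 and in the hypertrophic zone 118264, 64624, 35544, 46026 and 63170.4. Every epiphyseal array lay above every resting array, every transition and hypertrophic array lay above every other array, and the transition and hypertrophic arrays overlapped. Col10a1 was lower in the resting zone than in epiphyseal cartilage (-3.38 ± 0.50, adjusted p = 0.000183; 4 of 4 animals), by -2.72 without animal 1 and -4.23 without animal 5. It rose from the resting to the proliferative zone (1.70 ± 0.46, adjusted p = 0.0138), in 4 of 5 animals, with animal 5 going the other way. The call did not hold without animal 1 (1.11, adjusted p = 0.114), without animal 2 (1.44, adjusted p = 0.11) or without animal 3 (1.72, adjusted p = 0.0553), nor without the resting array of animal 1 alone (1.13, adjusted p = 0.0651). The rise from the proliferative to the transition zone (4.08 ± 0.46, adjusted p = 5.45e-07) and to the hypertrophic zone (4.85 ± 0.46, adjusted p = 1.06e-08) was seen in 5 of 5 animals. Between the transition and hypertrophic zones the difference was 0.77 ± 0.46, adjusted p = 0.249, below the 2-fold minimum.

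Type VI collagen had its trough in the proliferative zone for the chains Col6a1 and Col6a2, the short chains of its filaments. Col6a1 read 20655, 17487, 24048 and 21391 in epiphyseal cartilage, 11672, 8126, 6361, 12063 and 9135 in the resting zone and 2681, 2351, 1337, 2176 and 3094 in the proliferative zone. It read 9498, 5405, 8043, 6459 and 7475 in the transition and 18818, 13009.8, 14907, 10406 and 17713 in the hypertrophic zone. No neighbouring zones overlapped, and the proliferative arrays were the lowest of all. Col6a1 fell from epiphyseal to resting cartilage (-1.10 ± 0.19, adjusted p = 0.00103) and again to the proliferative zone (-2.03 ± 0.18, adjusted p = 1.21e-08). It rose to the transition zone (1.68 ± 0.18, adjusted p = 2e-07) and to the hypertrophic zone (1.01 ± 0.18, adjusted p = 0.000189), each in every animal with both zones. The last rise lay just under 2-fold without animal 2 (0.95, adjusted p = 0.00486), without animal 5 (0.96, adjusted p = 0.00307), without the transition array of animal 5 alone (0.97, adjusted p = 0.000909) and with arrays scaled to one median (0.74, adjusted p = 0.00584).

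Col6a2 took the same course. Its signals were 1993, 2554, 3621 and 3419 in epiphyseal cartilage, 1338, 1280, 894, 1496 and 1371 in the resting zone and 456, 424, 312, 577 and 703 in the proliferative zone. In the transition zone they were 1507, 1479.9, 811, 1247 and 1473 and in the hypertrophic zone 2749, 3445, 2088, 1860.4 and 2907. Again the proliferative arrays were the lowest and no neighbouring zones overlapped. The log2 fold changes were -1.03 ± 0.19, -1.37 ± 0.17 and 1.39 ± 0.17 along the first 3 steps (adjusted p = 0.00147, 2.96e-06 and 2.09e-06), and 0.99 ± 0.17, adjusted p = 0.000163 at the last, just under 2-fold. The first step was also under 2-fold without animal 4 (-0.93, adjusted p = 0.0071), without animal 5 (-0.95, adjusted p = 0.0236) and with arrays scaled to one median (-0.99, adjusted p = 0.00572). A second Col6a2 probe set was called at all 4 steps, at -1.67, -1.04, 1.47 and 1.5.

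Markers of other tissues also moved between the resting and the proliferative zone, where Col6a1, Col6a2, Col4a5 and Col14a1 fell. Called lower there were 4 of 7 tested skeletal muscle, 3 of 11 perichondrium, tendon and fibroblast, 2 of 4 leukocyte, 1 of 4 osteoblast and 1 of 4 osteoclast markers, against 4.12% of all probe sets. Of the same 11 markers 2 were called higher, Thy1 and Lum, against 1.97%. The mean signal of Pdgfra, a receptor of fibroblasts, was 7581 in the resting and 895.2 in the proliferative zone, that of Dcn 2905 and 313.5, and that of the muscle actin gene Acta1 13600 and 3037. The skeletal muscle sum ranged from 18566 to 81537 in the resting and from 19281 to 34422 in the proliferative zone, and the fibroblast sum from 15254 to 26725 and from 11397 to 19105. The muscle marker Myh1 went the other way, without a call, with means of 14400 and 20560. It made up most of the proliferative muscle sum (mean 27560), while the other muscle markers had lower means there than in the resting zone. The part of these cells in the 4 falls was not tested.

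Col6a3, the long chain of the same filaments, was called in no comparison as reported. It ranged from 13532 to 16730.3 in epiphyseal cartilage, 9669 to 13068 in the resting, 9104 to 12967 in the proliferative, 17119 to 24182 in the transition and 15322 to 29473 in the hypertrophic zone. The resting and proliferative arrays overlapped (-0.02 ± 0.15, adjusted p = 0.95), and every transition array lay above every proliferative one (0.86 ± 0.15, adjusted p = 0.000136), a difference below 2-fold and so not called. With arrays scaled to one median that difference was 1.03 (adjusted p = 8.63e-05), which passes the rule for a call. Col6a3 differed across zones (adjusted p = 3.21e-06). Within an array, the log2 signal of Col6a1 relative to Col6a3, centred on its mean over all arrays, was 1.35 ± 0.23 (SD, n = 4) in epiphyseal cartilage, 0.60 ± 0.41 (n = 5) in the resting, -1.41 ± 0.41 in the proliferative, -0.59 ± 0.28 in the transition and 0.32 ± 0.15 in the hypertrophic zone. The same quantity for Col6a1 relative to Col6a2 stayed between -0.38 ± 0.26 in the proliferative zone and 0.30 ± 0.33 in epiphyseal cartilage. These ratios are a description of unequal change and were not tested. Col6a5 and Col6a6 lay below the median in all 24 arrays and were not tested.

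**Figure D2:**
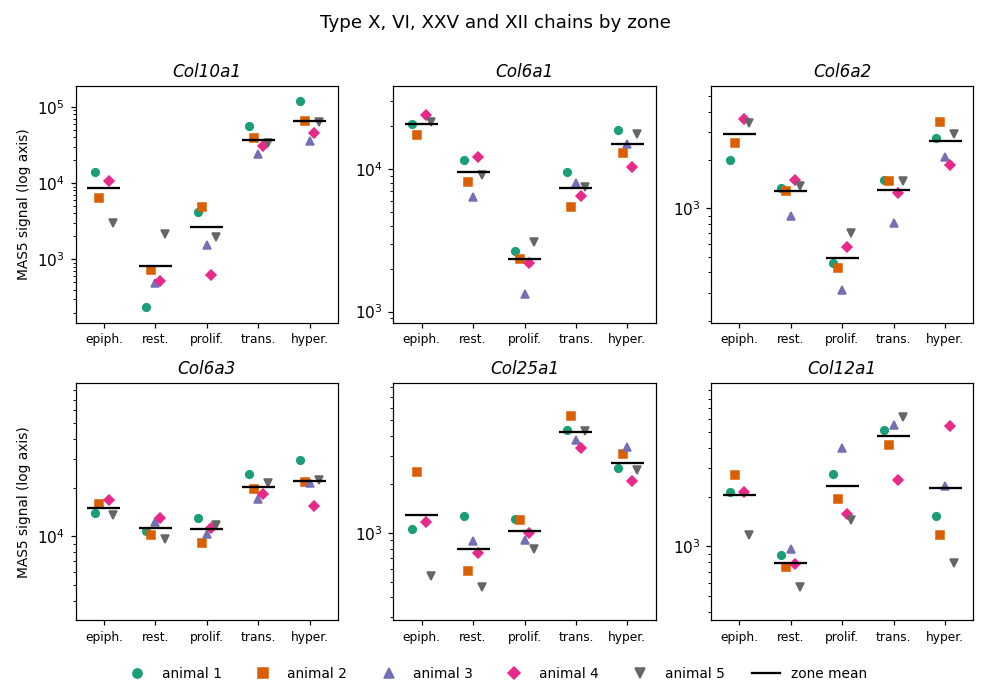
MAS5 signal (log axis) of Col10a1, Col6a1, Col6a2, Col6a3, Col25a1 and Col12a1 in each array by zone, with symbols for the animal and bars for the zone mean (4 epiphyseal arrays, 5 in each other zone). Col6a1 and Col6a2 are lowest in the proliferative zone, Col10a1 is highest in the transition and hypertrophic zones, and Col25a1 has its highest zone mean in the transition zone.

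Of the 6 tested chains of bone and soft-tissue fibrils, 4 rose from the transition to the hypertrophic zone and 5 from the proliferative zone, where 6.78% and 9.59% of all probe sets rose. None of their representative probe sets was called in the other 3 comparisons. Second probe sets of Col5a1 (1.03, adjusted p = 0.000135) and Col5a2 (1.68, adjusted p = 0.0121) were called higher in the transition than in the proliferative zone. Col1a1, a chain of the type I collagen of bone, read 9417, 1993, 1780.5 and 1567 in epiphyseal cartilage, 3279.9, 589.7, 2545, 1732 and 1477 in the resting zone and 1624, 884, 1114, 1259 and 1538 in the proliferative zone. It read 2935, 708, 1434, 1715 and 2167 in the transition zone and 6945, 3516, 8406, 39364 and 13606 in the hypertrophic zone. Every hypertrophic array lay above every transition and proliferative array, and animal 4 was the highest. The log2 fold change from the transition zone was 2.64 ± 0.40, adjusted p = 3.46e-05, and from the proliferative zone 3.01 ± 0.40, adjusted p = 1.93e-06, in 5 of 5 animals each. A second Col1a1 probe set was also called in both comparisons, at 2.27 and 1.94.

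Col1a2, the partner chain of Col1a1, read 6948, 3177, 5054, 4964 and 5767 in the transition and 25229, 18441, 20650.4, 51401 and 23519 in the hypertrophic zone. Its proliferative values were 4858, 2588, 3320.4, 2863 and 7997, its resting values 8306, 2560.4, 8179, 4940.5 and 7081 and its epiphyseal values 18698, 7335, 7756 and 7584. The hypertrophic arrays lay above all arrays of the other growth plate zones, and the epiphyseal array of animal 1 reached into their range. Col1a2 rose by 2.36 ± 0.26 from the transition zone (adjusted p = 6.54e-07) and by 2.71 ± 0.26 from the proliferative zone (adjusted p = 1.49e-08). Without the hypertrophic array of animal 4, whose osteoblast and osteoclast sums were the highest of the zone, the rise from the transition zone was 2.12 for Col1a1 (adjusted p = 4.21e-05) and 2.05 for Col1a2 (adjusted p = 5.59e-07).

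Col5a2, a chain of the type V collagen that lies inside type I fibrils, read 633, 598, 621, 374 and 1433 in the proliferative, 1955, 1622, 1582, 1157 and 2689 in the transition and 5549, 6672, 7624, 29244 and 3688 in the hypertrophic zone. Its resting values were 1415, 313, 1778, 553 and 1056 and its epiphyseal values 6396, 3759.7, 1036 and 1041, with animals 1 and 2 above animals 4 and 5. The hypertrophic arrays lay above all transition arrays. Col5a2 rose from the transition zone (2.18 ± 0.51, adjusted p = 0.00324) and from the proliferative zone (3.54 ± 0.51, adjusted p = 6.02e-06), in 5 of 5 animals each. From the proliferative to the transition zone Col5a2 differed by 1.37 ± 0.51, adjusted p = 0.0598, which was not called, and by 1.53 (adjusted p = 0.0444) with arrays scaled to one median, which was. Without the hypertrophic array of animal 4 the rises to the hypertrophic zone were 1.504 (adjusted p = 0.00994) and 2.87 (adjusted p = 5.53e-06). Its partner Col5a1 rose from the proliferative to the hypertrophic zone by 1.33 ± 0.19 (adjusted p = 4.11e-06), from 3897, 2595, 3663, 3247 and 3220.2 to 7366, 4344, 8962, 13224 and 10486, with no overlap. Its transition values were 7784, 4725, 7977, 4366 and 5427. The intermediate steps of Col5a1, 0.83 ± 0.19, adjusted p = 0.00224 to the transition zone and 0.50 ± 0.19, adjusted p = 0.0567 from there, were below 2-fold.

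Col3a1, the type III chain of soft tissues and vessels, read 817, 548, 890.4, 315 and 506 in the transition and 2911, 1672, 2543, 13118 and 1246 in the hypertrophic zone, with no overlap and with animal 4 far above the others. Its proliferative values were 672, 734, 585, 619 and 1962, where animal 5 reached into the hypertrophic range, and its resting values were 2754, 758, 5336, 581 and 1615. Col3a1 rose from the transition zone (2.30 ± 0.58, adjusted p = 0.00535) and from the proliferative zone (1.81 ± 0.58, adjusted p = 0.0155). Without the hypertrophic array of animal 4 the rise from the transition zone was 1.52 (adjusted p = 0.017), and without animal 5 the rise from the proliferative zone was 2.43 (adjusted p = 0.00338). The second call did not hold without the hypertrophic array of animal 4 (1.04, adjusted p = 0.0772), without animal 4 (1.18, adjusted p = 0.0711) or without animal 1 (1.75, adjusted p = 0.057). In epiphyseal cartilage Col3a1 read 7878, 7884, 1930.5 and 1262, and the 2 high arrays are those with the high osteoclast and endothelial sums. Col24a1, a fibrillar chain of developing bone, was not called in any comparison. Its hypertrophic values were 650, 359, 463, 3524 and 730, so animal 4 alone stood apart in that zone. Col24a1 did differ across zones (adjusted p = 0.0177). Every transition array lay below every proliferative one (-0.93 ± 0.34, adjusted p = 0.049). The difference from the transition to the hypertrophic zone was 1.00 ± 0.34 (adjusted p = 0.0335), upward in 4 of 5 animals. Both differences were just under 2-fold. Col5a3 lay below the median in all arrays and was not tested.

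Markers of bone and blood moved with the same zone. All 4 tested osteoblast markers, all 4 tested osteoclast markers, all 4 tested erythroid markers, all 4 tested leukocyte markers, 5 of 11 tested markers of perichondrium, tendon and fibroblasts 3 of 6 tested endothelial, 3 of 7 tested skeletal muscle and 1 of 6 tested pericyte and smooth muscle markers were called higher in the hypertrophic than in the transition zone, where 6.78% of all probe sets rose. The osteoblast sum ranged from 3788 to 6869 in the transition and from 22412 to 79911 in the hypertrophic zone. Most of it came from 1 gene, Ibsp, with mean signals of 3889 and 31430 against mean sums of 4556 and 42600. The osteocalcin gene Bglap, a defining osteoblast marker, had a mean signal of 6.9 in the transition and 1945 in the hypertrophic zone. It lay above the array median in fewer than 4 of the 24 arrays and so was not tested. Only some of the 5 hypertrophic arrays can therefore carry that mean. The erythroid sum (5 markers) ranged from 1041 to 5471 and from 9537 to 32320. The part of these cells in the rise of the bone fibrillar chains was not tested.

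**Figure D3:**
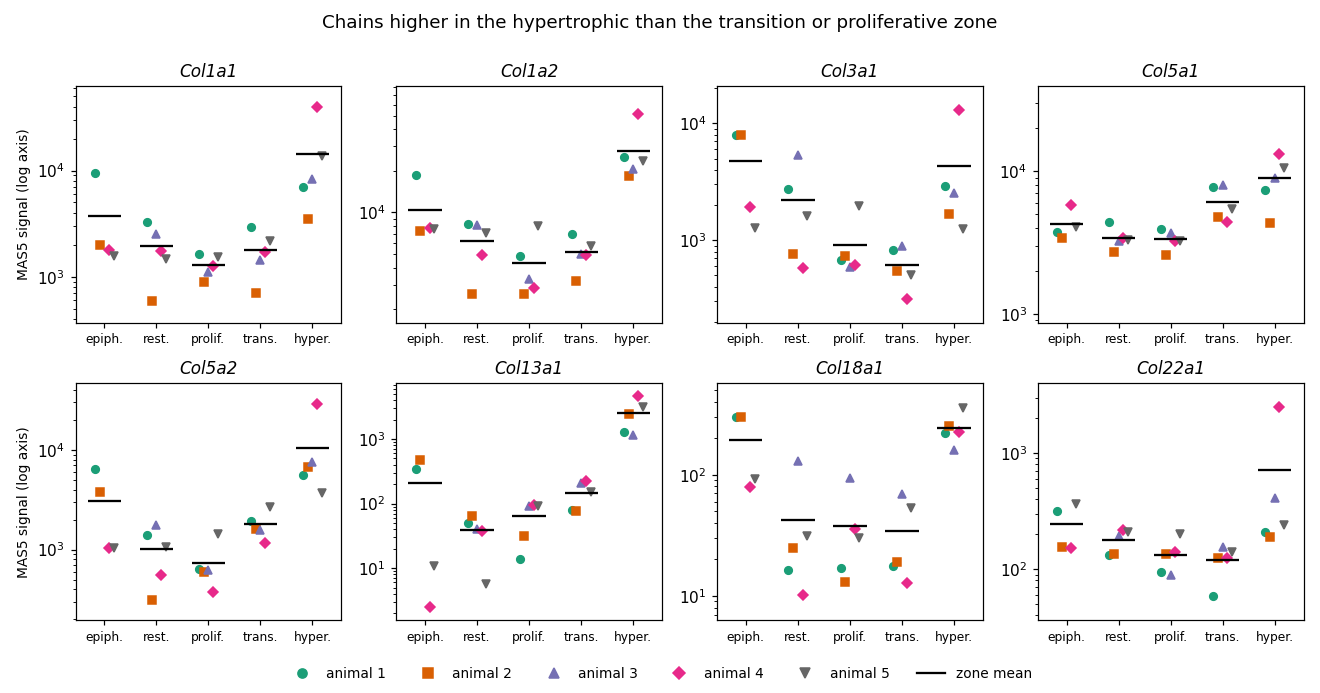
MAS5 signal (log axis) of Col1a1, Col1a2, Col3a1, Col5a1, Col5a2, Col13a1, Col18a1 and Col22a1 in each array by zone, with symbols for the animal and bars for the zone mean (4 epiphyseal arrays, 5 in each other zone). For Col1a1, Col1a2, Col3a1, Col5a2, Col13a1, Col18a1 and Col22a1 the 5 hypertrophic arrays lie above the 5 transition arrays, and animal 4 is the highest hypertrophic array of Col1a1, Col1a2, Col3a1, Col5a1, Col5a2, Col13a1 and Col22a1.

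The transmembrane chains Col13a1 and Col25a1 rose in different zones. Col13a1, which encodes a collagen of cell adhesion sites, read 13.7, 31.8, 92.2, 96.3 and 92.8 in the proliferative zone, below the array medians, and 78.3, 75.5, 211, 220.2 and 154 in the transition zone, above the median in animals 3, 4 and 5. In the hypertrophic zone it read 1306, 2415, 1149.7, 4583 and 3121, above all arrays of the other zones. The log2 fold change was 3.88 ± 0.70, adjusted p = 0.000234 from the transition and 4.96 ± 0.70, adjusted p = 3.75e-06 from the proliferative zone, the largest positive change of any tested collagen gene in each of these comparisons. From the proliferative zone Col10a1 came close (4.85 ± 0.46), and their order changed with the settings. Over the alternatives the lowest value there was 4.20 for Col13a1 and 4.52 for Col10a1. The resting values of Col13a1 were 50.1, 64.7, 39.8, 37.8 and 5.6 and its epiphyseal values 343, 480.4, 2.5 and 10.9, high in animals 1 and 2 and near the floor of the scale in animals 4 and 5. Col13a1 lay above the array median in 10 of 24 arrays.

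Col25a1, a neuronal and muscle transmembrane collagen, read 1221, 1200.3, 907, 998 and 795 in the proliferative zone, 4349, 5306, 3765, 3365 and 4269 in the transition zone and 2541, 3112, 3414, 2109 and 2468 in the hypertrophic zone. Every transition array lay above every proliferative array and above all hypertrophic arrays but that of animal 3. Col25a1 rose to the transition zone (2.02 ± 0.23, adjusted p = 5.91e-07) and was higher in the hypertrophic than in the proliferative zone (1.40 ± 0.23, adjusted p = 3.18e-05), in 5 of 5 animals each. It was lower in the hypertrophic than in the transition array of 5 of 5 animals, without a call (-0.63 ± 0.23, adjusted p = 0.0522). The transmembrane chain Col23a1 ranged from 58.5 to 403 and had an adjusted p across zones of 0.999. Col17a1, the transmembrane chain of epithelial attachment sites, lay below the median in all arrays and was not tested.

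Among the basement membrane chains, Col18a1 was high in the hypertrophic zone and in 2 of the 4 epiphyseal arrays. Col18a1, whose protein carries the endostatin fragment, read 299, 298, 79.5 and 91.4 in epiphyseal cartilage and 219.6, 253, 158, 224 and 355 in the hypertrophic zone. It read 16.5, 25, 129, 10.1 and 31.2 in the resting, 17, 13, 94.2, 35.6 and 30 in the proliferative and 17.7, 19, 69.1, 12.9 and 52.8 in the transition zone, where all values lay below the array medians. The high epiphyseal arrays were those of animals 1 and 2, with the high osteoclast and endothelial sums. Those of animals 4 and 5 lay below their array medians of 170.9 and 244.6 and below the resting array of animal 3. Col18a1 rose from the transition (2.45 ± 0.49, adjusted p = 0.000779) and the proliferative zone (2.39 ± 0.49, adjusted p = 0.00043) to the hypertrophic zone, in 5 of 5 animals, with no overlap. A second probe set was called in both comparisons, at 2.44 and 1.89. Col18a1 was lower in the resting zone than in epiphyseal cartilage (-2.11 ± 0.53, adjusted p = 0.0289), with overlapping groups. That call did not hold without animal 1 (-1.74, adjusted p = 0.233), animal 2 (-1.83, adjusted p = 0.276) or animal 4 (-2.24, adjusted p = 0.0618), without both epiphyseal arrays of animals 1 and 2 (-1.15, adjusted p = 0.598) without the resting array of animal 1 (-2.00, adjusted p = 0.0727), with no replicate block (-1.92, adjusted p = 0.0789) or with the mean of its probe sets (-1.70, adjusted p = 0.131). Col18a1 lay above the array median in 7 of 24 arrays, so it was tested only through its high zones.

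Among type IV chains, the framework of basement membranes, the highest Col4a1 values sat in a few arrays. Col4a1 read 2949, 3644, 442 and 344 in epiphyseal cartilage, and 173, 217, 535, 1742 and 304 in the hypertrophic zone and was highest in epiphyseal animals 1 and 2 and hypertrophic animal 4. In the resting zone it read 1158.5, 160.1, 684.8, 249 and 354.4, so animals 1 and 3 lay above epiphyseal animals 4 and 5. In the proliferative and transition zones it ranged from 126 to 400.4 and from 72.9 to 231. Col4a1 and its divergent partner Col4a2 passed the F test (adjusted p = 0.00397 and 0.000574) and were called in no comparison of 2 zones. From the transition to the hypertrophic zone they differed by 1.52 ± 0.62, adjusted p = 0.0837 and by 0.81 ± 0.31, adjusted p = 0.0675. A second Col4a1 probe set was called higher in the hypertrophic zone, by 1.91 from the transition zone and 1.85 from the proliferative zone. The highest endothelial sums were those of the same epiphyseal arrays and of the hypertrophic array of animal 4 (3490), against 893 to 1679 in the other hypertrophic arrays, and their part in the Col4a1 levels was not tested.

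Col4a5, a type IV chain of specialised basement membranes, fell from 349, 242, 326, 214 and 160.5 in the resting zone to 108, 95.3, 43.6, 130.2 and 132 in the proliferative zone, with no overlap (-1.24 ± 0.29, adjusted p = 0.00472). Its transition values were 107, 104, 144, 98.4 and 89. It was higher in the hypertrophic than in the proliferative zone, at 253, 253, 179, 241 and 174 (1.05 ± 0.29, adjusted p = 0.0058). The fall was not called without animal 3 (-0.92, adjusted p = 0.0581). The rise was under 2-fold without animal 2 (0.999, adjusted p = 0.0415), without animal 3 (0.89, adjusted p = 0.0259) and without the hypertrophic array of animal 4 (0.999, adjusted p = 0.0163). It was also under 2-fold after quantile normalization (0.96, adjusted p = 0.00768), with arrays scaled to one median (0.96, adjusted p = 0.009) and with a pseudocount of 64 (0.80, adjusted p = 0.00601), where the fall was under 2-fold as well (-0.95, adjusted p = 0.00399). Col4a4 and Col4a6 lay below the median in all arrays and were not tested.

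Col15a1 and Col7a1 had other courses. Col15a1, a proteoglycan-like collagen next to basement membranes, had its highest zone mean in the proliferative zone, with values of 1496, 1433, 1667, 1054 and 1572 against 788, 466, 631, 618 and 872 in the resting and 619.9, 544, 773, 529 and 788 in the hypertrophic zone. The proliferative arrays lay above both of these zones, and the transition values were 838, 646, 1059.6, 657 and 1281. It rose by 1.09 ± 0.15 from the resting zone (adjusted p = 1.14e-05) and was lower in the hypertrophic than in the proliferative zone (-1.13 ± 0.15, adjusted p = 1.73e-06), in 5 of 5 animals each. Without animal 2 the rise was just under 2-fold (0.97, adjusted p = 0.000867). Col7a1, the chain of anchoring fibrils, fell from 12.6, 183, 103, 134 and 174 in the proliferative to 18.6, 12.1, 20.3, 33 and 26.5 in the transition zone (-1.61 ± 0.46, adjusted p = 0.0138), in 4 of 5 animals, as animal 1 was already low. That call did not hold without animal 2 (-1.30, adjusted p = 0.1), animal 4 (-1.60, adjusted p = 0.0536) or animal 5 (-1.47, adjusted p = 0.0885) and was just under 2-fold with a pseudocount of 64 (adjusted p = 0.0142), and Col7a1 was above the array median in 7 of 24 arrays. Its epiphyseal values were 246, 296, 301 and 449.7, its resting values 167, 145, 31.1, 274 and 231 and its hypertrophic values 38.5, 26.1, 74.1, 101 and 114.

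Outside type IX, the tested FACIT genes had calls in different zones. Col12a1, a FACIT of dense connective tissue, read 2152, 2723, 2148 and 1183 in epiphyseal cartilage, 886, 748, 960, 779 and 568 in the resting zone and 2752, 1949, 3985, 1579.9 and 1443 in the proliferative zone. It read 5152, 4149, 5502, 2564 and 6209 in the transition and 1544, 1182, 2355, 5427 and 794 in the hypertrophic zone. The resting arrays lay below those of both neighbours, and the transition zone had the highest mean. Col12a1 was called at all 4 steps: -1.44 ± 0.35, adjusted p = 0.0213; 1.47 ± 0.32, adjusted p = 0.00246; 1.05 ± 0.32, adjusted p = 0.0207; and -1.32 ± 0.32, adjusted p = 0.00399. The rise to the proliferative zone was called in every run that left out animals or arrays. With the mean of its probe sets in place of the brightest one it was 0.83 (adjusted p = 0.0541).

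The other Col12a1 calls changed with the arrays and the settings used. The first step was lost without animal 1 (-1.49, adjusted p = 0.098), animal 2 (-1.29, adjusted p = 0.22) or animal 3 (-1.40, adjusted p = 0.0591), without both epiphyseal arrays of animals 1 and 2 (-1.20, adjusted p = 0.25) with no replicate block (-1.32, adjusted p = 0.0687), with arrays scaled to one median (-1.40, adjusted p = 0.0669) and with no mean-variance trend (-1.44, adjusted p = 0.0677). The rise to the transition zone was lost without animal 1 (1.08, adjusted p = 0.06), animal 2 (1.04, adjusted p = 0.0697) or animal 5 (0.79, adjusted p = 0.124), or without the transition array of animal 5 alone (0.74, adjusted p = 0.108). It was also lost with quantile normalization (0.94, adjusted p = 0.0348), array weights (0.90, adjusted p = 0.00342) and the mean of the probe sets (0.70, adjusted p = 0.084). The fall to the hypertrophic zone was lost without animal 5 (-0.92, adjusted p = 0.067) and with the mean of the probe sets (-0.51, adjusted p = 0.214), and it was seen in 4 of 5 animals, animal 4 going the other way (-1.92, adjusted p = 4.77e-06, without animal 4). A dimmer Col12a1 probe set was called in none of the comparisons, at -1.31, 0.73, 1.03 and -0.53 along the same steps.

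Col14a1, a fibril-surface collagen of skin, tendon and immature cartilage, had its drop between the resting and the proliferative zone. It read 7105, 5272, 4594 and 7484 in epiphyseal cartilage, 7255, 5078, 4989, 3559 and 5378 in the resting zone and 736, 1087, 676, 678 and 605 in the proliferative zone. It read 368, 404, 648, 593 and 841 in the transition and 83.3, 251, 313, 942 and 335 in the hypertrophic zone. All epiphyseal and resting arrays lay above all others. The fall to the proliferative zone was -2.76 ± 0.35, adjusted p = 3.76e-06, in 5 of 5 animals, and a second probe set was called there too (-1.52). Col14a1 was lower in the hypertrophic than in the proliferative zone (-1.28 ± 0.35, adjusted p = 0.0056). The hypertrophic call was lost without animal 1 (-0.87, adjusted p = 0.0384) or animal 2 (-1.09, adjusted p = 0.0547) and with the mean of its probe sets (-0.49, adjusted p = 0.125), and the second probe set stood at 0.31 there.

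Col16a1, a FACIT of interstitial matrix, had lower values at each step from the resting zone on. Its proliferative values were 6575, 5878, 6177, 6640.3 and 6484, its transition values 4129, 3822, 4636, 3677 and 5872 and its hypertrophic values 2249, 2787, 2761, 3233 and 2505. The means were 9486 ± 1146 in the resting, 6351 ± 318 in the proliferative, 4427 ± 887 in the transition and 2707 ± 366 in the hypertrophic zone (SD, n = 5 each). No neighbouring pair among these 4 zones overlapped, and each step was downward in 5 of 5 animals, at -0.57 ± 0.14, -0.54 ± 0.14 and -0.70 ± 0.14 (adjusted p = 0.0074, 0.0078 and 0.000898). None of these steps reached 2-fold, and the fall over the last 2 of them together was called (-1.23 ± 0.14, adjusted p = 2.11e-07).

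Col22a1 and Col20a1 are the dimmer FACIT genes that were tested. Col22a1, a collagen of tissue junctions, rose from 58.3, 124, 154, 126 and 141 in the transition to 211, 189.5, 407, 2496 and 239.8 in the hypertrophic zone (1.67 ± 0.44, adjusted p = 0.00713), with animal 4 far above the rest. Its proliferative values were 94.8, 134, 89.2, 140.3 and 200.1. The rise from there (1.55 ± 0.44, adjusted p = 0.00673) was under 2-fold without the hypertrophic array of animal 4 (0.90, adjusted p = 0.0311) or without animal 4 (0.93, adjusted p = 0.0347). Without that array the rise from the transition zone was 1.01 (adjusted p = 0.0235). Col20a1 was lower in the hypertrophic zone, at 15.5, 64.2, 54.6, 25.6 and 47.5, than in the proliferative zone, at 180.4, 134, 137, 206 and 179.7 (-1.74 ± 0.42, adjusted p = 0.00185), with no overlap. Its transition values were 194, 133, 19.8, 210.1 and 97.2. Without the resting array of animal 1 the fall from the transition zone was not called (-1.19, adjusted p = 0.0507). The fall from the transition zone (-1.19 ± 0.42, adjusted p = 0.043) was lost under 13 alternatives, among them no replicate block (-1.19, adjusted p = 0.0636), the omission of animal 1 (-0.80, adjusted p = 0.261), 2 (-1.26, adjusted p = 0.102), 4 (-0.87, adjusted p = 0.223) or 5 (-1.27, adjusted p = 0.0874) and that of the hypertrophic array of animal 4 (-0.99, adjusted p = 0.108). Col19a1 lay below the median in all arrays and was not tested.

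Type VIII collagen is a short-chain network collagen related to type X. Col8a2 read 6156, 5339, 5469, 5605 and 3484 in the proliferative, 4794, 2845, 4411, 2506 and 6274 in the transition and 2206, 1151, 1666, 1394 and 1294 in the hypertrophic zone. The hypertrophic arrays lay below all arrays of every other zone. It fell from the transition zone (-1.38 ± 0.19, adjusted p = 8.28e-06) and from the proliferative zone (-1.76 ± 0.19, adjusted p = 6.32e-08), in 5 of 5 animals each. Its resting values were 5238, 3516, 5221, 2924 and 2981 and its epiphyseal values 3069, 2618, 2436 and 2387. Col8a1, the partner chain, was above the median in 2 of 24 arrays and was not tested. Its values were 158, 144, 176 and 218 in epiphyseal cartilage, 7.4 to 33.3 in the proliferative and 126, 97.5, 102, 225 and 40.2 in the hypertrophic zone.

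**Figure D4:**
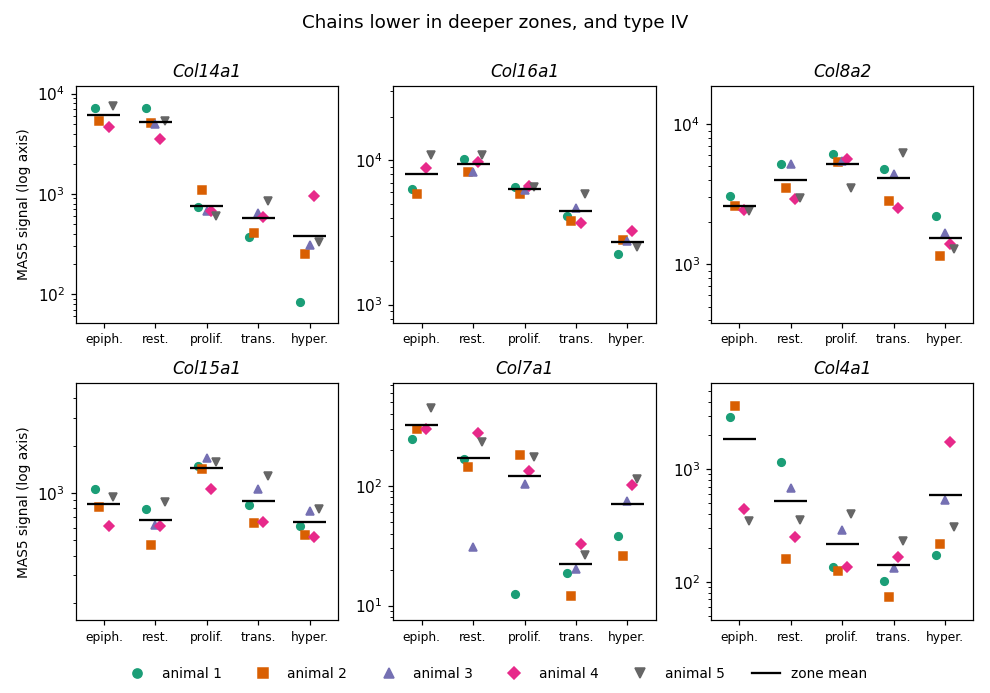
MAS5 signal (log axis) of Col14a1, Col16a1, Col8a2, Col15a1, Col7a1 and Col4a1 in each array by zone, with symbols for the animal and bars for the zone mean (4 epiphyseal arrays, 5 in each other zone). Col14a1 is lower from the proliferative zone on, Col16a1 has a lower mean in each zone after the resting zone, and Col8a2 is lowest in the hypertrophic zone. The highest Col4a1 values are those of epiphyseal animals 1 and 2 and hypertrophic animal 4, followed by resting animal 1.

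The remaining member, Col26a1, ranged from 6.7 to 225, with an adjusted p across zones of 0.588. The 8 untested genes were Col6a5, Col6a6, Col5a3, Col4a4, Col4a6, Col19a1, Col8a1 and Col17a1. Except for Col8a1, none of the 8 lay above its array's median anywhere. The members that passed the filter through a few arrays were Col26a1 (5 of 24 arrays above the median), Col20a1 (6), Col7a1 and Col18a1 (7 each) and Col13a1 (10). A gene that passes the filter only through the zone where it is high had to differ. The calls of the last 4 are among the counts over the 33 tested genes, and Col26a1 was never called. The filter on the mean left out these 5 genes, Col23a1 and Col4a5.

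Partner chains of other molecules were set side by side in the same way as type VI. The centred log2 difference of Col11a1 and Col11a2 had zone means within 0.06 of each other, and that of Col9a1 and Col9a3 within 0.09. The zone means spanned 0.39 for Col9a1 and Col9a2 (largest SD within a zone 0.21) and 0.42 for Col9a2 and Col9a3 (0.29). Col9a2 was lowest relative to both partners in the hypertrophic zone. For Col4a1 and Col4a2 the span was 1.13, less than the largest SD within a zone (1.36). For Col1a1 and Col1a2 the zone means spanned 0.47, less than the largest SD within a zone (0.80). For Col5a1 and Col5a2 they spanned 2.21 (largest SD 1.57), from 0.88 ± 0.72 in the proliferative zone to -1.33 ± 1.02 in the hypertrophic zone. For Col8a1 and Col8a2 they spanned 3.73, from -1.85 ± 0.52 in the proliferative to 1.88 ± 0.75 in the hypertrophic zone, with Col8a1 near the floor of the scale. These are descriptions with no test.

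**Figure D5:**
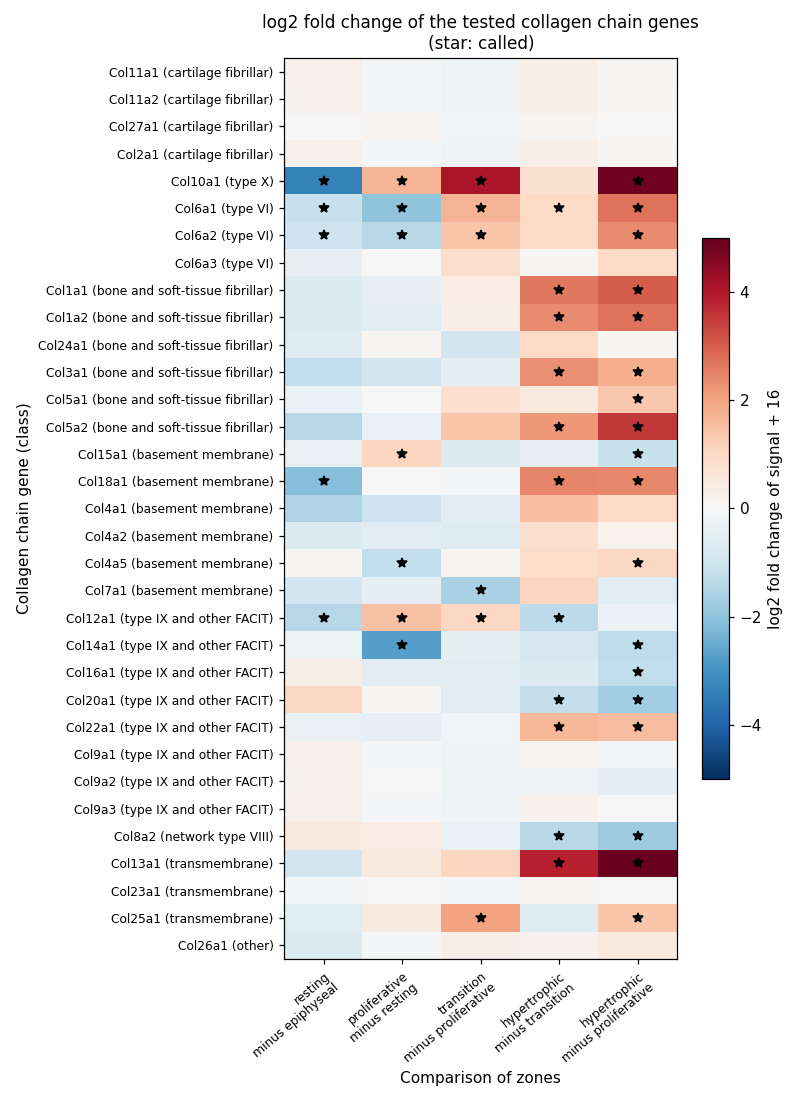
Log2 fold change of signal + 16 (colour scale) for the 33 tested collagen chain genes (rows, with their class) in the 5 comparisons (columns); a star marks a call. The cartilage fibrillar and type IX rows hold no star, type X holds 4 stars, Col6a1 holds 5 and Col6a2 holds 4, and the bone fibrillar rows, drawn for 1 probe set a gene, hold stars in the 2 comparisons with the hypertrophic zone alone.

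Genes that build, tie and cut collagen were read beside the chains, from a list arranged by role. Their values come from all arrays and were not recomputed without those that stood apart in markers of other cell types. Among 13 tested genes of chain hydroxylation, glycosylation and folding, 0 rose and 3 fell from the proliferative to the hypertrophic zone, where 9.59% of all probe sets rose and 9.07% fell. They were P4ha3, a prolyl hydroxylase subunit (-4.37 ± 0.28, adjusted p = 9.87e-12), Plod1, a lysyl hydroxylase (-1.19 ± 0.16, adjusted p = 1.78e-06), and P3h1, another prolyl hydroxylase (-1.07 ± 0.16, adjusted p = 8.67e-06). P4ha3 also fell at the step to the transition zone (-2.02 ± 0.28, adjusted p = 9.19e-06) and at the step from it (-2.35 ± 0.28, adjusted p = 1.41e-06). None of the 13 was called between epiphyseal, resting and proliferative cartilage.

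Of 5 tested crosslinking genes 2 rose and 1 fell from the proliferative to the hypertrophic zone, where 9.59% of all probe sets rose and 9.07% fell. Lox, a lysyl oxidase, rose (3.47 ± 0.25, adjusted p = 6.86e-11), after a fall from the resting to the proliferative zone (-2.35 ± 0.25, adjusted p = 1.90e-07), and the transglutaminase gene Tgm2 rose (1.56 ± 0.17, adjusted p = 5.93e-08). Loxl3 fell (-3.03 ± 0.15, adjusted p = 1.33e-13). Of the 2 tested genes of propeptide removal, Bmp1, a procollagen C-proteinase, fell from the resting to the proliferative zone (-1.45 ± 0.14, adjusted p = 4.55e-08) and rose from the transition to the hypertrophic zone (2.14 ± 0.14, adjusted p = 3.43e-10).

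Of 5 collagen-degrading genes 3 rose and 0 fell from the proliferative to the hypertrophic zone, where 9.59% of all probe sets rose and 9.07% fell. They were the collagenase Mmp13 (4.09 ± 0.64, adjusted p = 1.77e-05), Mmp9 (4.55 ± 0.73, adjusted p = 2.37e-05) and Ctsk (3.34 ± 0.72, adjusted p = 0.000623), and Mmp9 and Ctsk are also on the osteoclast list. Of 10 fibril-associated genes 1 rose and 5 fell, with the falls led by Matn2, a matrilin (-3.28 ± 0.21, adjusted p = 9.13e-12), Prelp (-3.93 ± 0.27, adjusted p = 4.31e-11) and Fmod, a fibril-binding proteoglycan (-2.49 ± 0.20, adjusted p = 4.25e-10). The gene that rose was Dcn, for a small fibril-binding proteoglycan (1.73 ± 0.31, adjusted p = 8.32e-05; named here after its values were seen). From the resting to the proliferative zone 3 of the 10 rose and 2 fell, where 1.97% of all probe sets rose and 4.12% fell, among them Matn2 (2.30 ± 0.21, adjusted p = 1.85e-08) and Prelp (2.16 ± 0.27, adjusted p = 2.79e-06) upward and Dcn (-3.08 ± 0.31, adjusted p = 9.58e-08) downward. From the proliferative to the hypertrophic zone 1 of 5 tested receptor genes rose and 1 fell, against 9.59% and 9.07% of all probe sets. Itga1, the chain of a collagen-binding integrin, rose (2.38 ± 0.28, adjusted p = 2.46e-07). Ddr2, a receptor kinase for fibrillar collagens, fell (-2.16 ± 0.27, adjusted p = 7.24e-07). In the same comparison, with the same shares, 1 of 3 tested transcription factor genes rose and 2 fell. Mef2c rose (1.39 ± 0.16, adjusted p = 1.82e-07), and Runx3 (-1.69 ± 0.17, adjusted p = 2.02e-08) and Sox6 (-1.22 ± 0.21, adjusted p = 5.37e-05) fell.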

How the data were processed

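RNA of 24 microdissected cartilage samples was amplified and hybridised, 1 array per sample. The deposited values are intensity values, 1 linear MAS5 signal per probe set, per the submitters' processing notes, and the sources used here give no version of it. In every array the trimmed mean lay between 499.5 and 500. The table held 31099 probe sets, of which 57 controls were left out. No detection call was used, so a dim signal is not shown to differ from background.

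Signals were taken as log2(signal + 16) without further normalization. Probe sets above the array median in at least 4 arrays were fitted in R 4.3.3 with limma 3.58.1 (trended variance, 15 residual degrees of freedom), in 1 fit of all zones with the animal as a block. A call needed a fold of 2 and an adjusted p below 0.05. The labels' descriptions number the animal of each array, in 2 wordings that are not stated to share 1 numbering. Deviations from the zone mean had a median correlation of 0.176 between arrays of 1 animal (46 pairs) and -0.046 between animals (184 pairs). Across the 2 wordings these medians were 0.183 (27 pairs) and -0.049 (108 pairs), against 0.158 and -0.044 within a wording. The fit was also run on simulated data with independent normal noise of the fitted spread. That simulation does not cover outlying arrays or wrongly matched animals, and its outcome is not given here. Gene names came from the platform annotation, and figures were drawn with Python 3.11.15 and matplotlib 3.10.9.

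Members and lists were chosen with earlier results of these data known. Every member may be named, array values are given for called members and for chains that define a class, and up to 3 called pathway genes per role and comparison are named, those of smallest adjusted p. Alternatives covered the pseudocount, scaling, filter, block, variance model, probe set rule and single arrays.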

Additional observations from a re-analysis of the deposited data

Results flagged for a closer look

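In 12 of 165 groups of arrays (33 tested collagen genes in 5 zones), 1 array lay far from the rest by Dixon's criterion, where chance gives about 5% of groups. In epiphyseal cartilage the array of animal 5 was highest for Col2a1 at 96937.6 (others up to 56487.7), Col11a1 at 73730.8 (others up to 43734.5) and Col9a1 at 63873.2 (others up to 39648.8), chains of the same cartilage fibrils. The epiphyseal array of animal 1 was highest for both type I chains, with Col1a1 at 9417.3 (others up to 1993.4) and Col1a2 at 18698.1 (others up to 7756). Its osteoblast marker sum was 19818.1, against 2406.8 to 4553.4 in the other epiphyseal arrays.

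The hypertrophic array of animal 4 read 2495.9 for Col22a1, with the others between 189.5 and 407.3. Col22a1 was also low in the transition array of animal 1, at 58.3 against 123.7 to 153.9. In the proliferative zone animal 5 was highest for Col3a1, at 1961.9 against 585.4 to 734.2, and lowest for Col8a2, at 3484.3 against 5339.1 to 6156.4. The proliferative array of animal 1 read 12.6 for Col7a1 (others from 103.1), that of animal 2 read 6.7 for Col26a1 (others from 102.8), and the transition array of animal 4 read 66.6 for Col23a1 (others from 189.4). These last 3 signals lie below the array medians.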

How the results depend on the processing

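Each comparison was recomputed under 20 alternatives fixed in the design and 4 chosen after seeing the data. Of the 47 collagen calls, 0 reversed and 31 held under every alternative that gave them a value. Of these 31, 25 had a value under all of them. The stricter filter on the array percentile and the filter on the mean, chosen after seeing the data, gave a value for 37 of the 47 each. The 5 calls between epiphyseal and resting cartilage fell to 3 with arrays scaled to one median, to 3 with no replicate block, and to 3 without the epiphyseal arrays of animals 1 and 2. Leaving out each animal in turn gave 3 to 4 calls there, 5 to 7 from resting to proliferative, 4 to 6 from proliferative to transition, 8 to 14 from transition to hypertrophic and 16 to 18 from proliferative to hypertrophic, with 23 to 24 genes passing the F test. With no replicate block 3 of the 47 calls were lost, and their values stand beside the genes. Scaling to one median moved the median of all probe sets from 0.016 to -0.24 between transition and hypertrophic zones, and 7 of 11 collagen calls were upward there, against 8 of 11 as reported. Without the hypertrophic array of animal 4 and the epiphyseal arrays of animals 1 and 2 together, chosen after seeing the data, 43 of 47 calls held. Without the resting array of animal 1, also chosen then, 44 held, and without that of animal 3 all 47. The cause of these changes was not tested. With 4 or 5 arrays a zone and no detection calls, signals near or below the array median limit what can be said of the dim chains.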
